A study of Pleuronichthys verticalis with 38 samples.

Results

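The results describe 43 array probes whose mean level in the liver of hornyhead turbot stepped down from uninjected fish through oil-injected and PBDE-injected fish to PCB-injected fish. Hornyhead turbot is a flatfish that lives on the sea floor and serves as a sentinel of contaminated sediment. The level of a probe is its log2 processed signal minus the log2 75th percentile of all non-control spots on its array. The members were chosen by the group means of these fish, so those means are described and not tested. Of 14757 probes, 7628 were well above background on at least 30 of 38 arrays, and among those a member had a seawater mean over its oil mean by more than 0.25. Its oil mean also lay over its PBDE mean, its PBDE mean over its PCB mean, and its oil mean over its PCB mean by more than 0.3. The PBDE and PCB means were each the average of 2 dose means. The choice allowed 100 probes, and 43 met it, which is 0.564% of the 7628.

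Each of the 38 fish gave 1 liver RNA sample and 1 array. The injected fish received 10 µg/g body weight of PCBs (high PCB, 7 fish, 1 female and 6 males), 1 µg/g of PCBs (low PCB, 5 fish, 4 females and 1 male), 5 µg/g of PBDEs (high PBDE, 6 fish, 5 males and 1 immature) or 0.5 µg/g of PBDEs (low PBDE, 7 fish, 2 females and 5 males). Oil controls (6 fish, 1 female, 4 males and 1 immature) were injected with peanut oil and nothing else, and the uninjected seawater controls were 7 fish, 2 females and 5 males. Every injection was a single dose into the body cavity, in 2 ml of oil per kg, and livers were taken after 96 hours. All injected groups therefore share the oil, and the seawater and oil controls differ by the injection as a whole. One label of seawater control 7 names it a vehicle control, against its title and source. It was kept as a seawater control, and results without it are given where they differ. The ages, strain and genotype of the fish are not given in the sources used here.

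Polychlorinated biphenyls (PCBs) were made as insulating and cooling fluids, and polybrominated diphenyl ethers (PBDEs) as flame retardants. Both are fat-soluble, persist in sediment and accumulate in fish. The liver is where vertebrates oxidise and conjugate many foreign compounds, and it also makes most blood plasma proteins and, in egg-laying females, yolk precursors. Some PCBs bind the aryl hydrocarbon receptor, which switches on cytochrome P450 genes, and both classes of compound can interfere with thyroid hormone transport and metabolism. The files pair each probe with a contig number of a transcript assembly and with no gene name or sequence. The members are therefore given by probe ID, no role is assigned to any of them, and the liver label could not be set against marker genes. In whole liver, fewer cells of one type and less RNA per cell cannot be told apart.

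All 43 members had 1 spot each, came from 43 different contigs and carried 0 outlier flags. They were not confined to dim or bright spots. Their mean level over all fish ran from -2.80 to 6.05 with a median of 0.04, against a median of -0.19 over the 7628 probes, and 22 lay above and 21 below the 75th percentile of their arrays. Of the 43, 26 were well above background on all 38 arrays and the others on 31 or more, and in 0 members was a whole group at background. Of the 7628 probes, 5564 without outlier flags were well above background on all 38 arrays. The lower quartile was 35 arrays in members and 37 over the 7628 probes. Most of the members' signals not well above background lay in PCB fish, and few in controls. HT_SCCWRP_54762 was well above it in 4 of 7 high PCB and 7 of 7 seawater fish. The part of such signals in the members' differences was not tested. A further 20 probes met the limits on the means but were well above background on 5 to 29 arrays and were not taken. Members also varied more among fish of one group, with a median within-group SD of 0.64, against 0.48 over the 7628 probes. In the 58 probes that met the same limits turned round, that median was 0.74, so the larger spread was not particular to the members.

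The following differences were fixed in sign by the choice of members and are given as a description, with no test. PCB fish lay below seawater fish by a median of 0.90 on the log2 scale, with members between -1.91 and -0.57, and 16 members differed by more than 2-fold. The median step was -0.41 for oil minus seawater (range -1.08 to -0.26), -0.25 for PBDE minus oil (range -1.002 to -0.027), and -0.28 for PCB minus PBDE (range -1.42 to -0.0086). The medians of the same steps over the 7628 probes were 0.0095, -0.031 and 0.012. The step between oil and seawater made up a median of 45.1% of a member's total difference, with members from 16.6% to 67.9%. It was the largest step in 27 members, the step between PBDE and oil in 5, and the step between PCB and PBDE in 11. The choice required that step to exceed 0.25 and set no minimum for the other steps taken singly, which bears on these shares.

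The order seawater over oil over PBDE over PCB, without any limit on size, held for 467 of the 7628 probes (6.12%). Of the 24 possible orders of the 4 means it was the 4th most frequent, and the orders held between 120 and 572 probes each. The opposite order held for 374 probes (4.90%). With all limits turned round, 58 probes stepped up from seawater to PCB, against the 43 that stepped down. At the edge of the choice, HT_SCCWRP_54762 was inside with seawater over oil by 0.26, and HT_SCCWRP_3327 was outside with 0.25, its unrounded value lying under the limit. HT_SCCWRP_23466 was inside with oil over PCB by 0.31, and HT_SCCWRP_14613 was outside with 0.30.

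**Figure D1:**
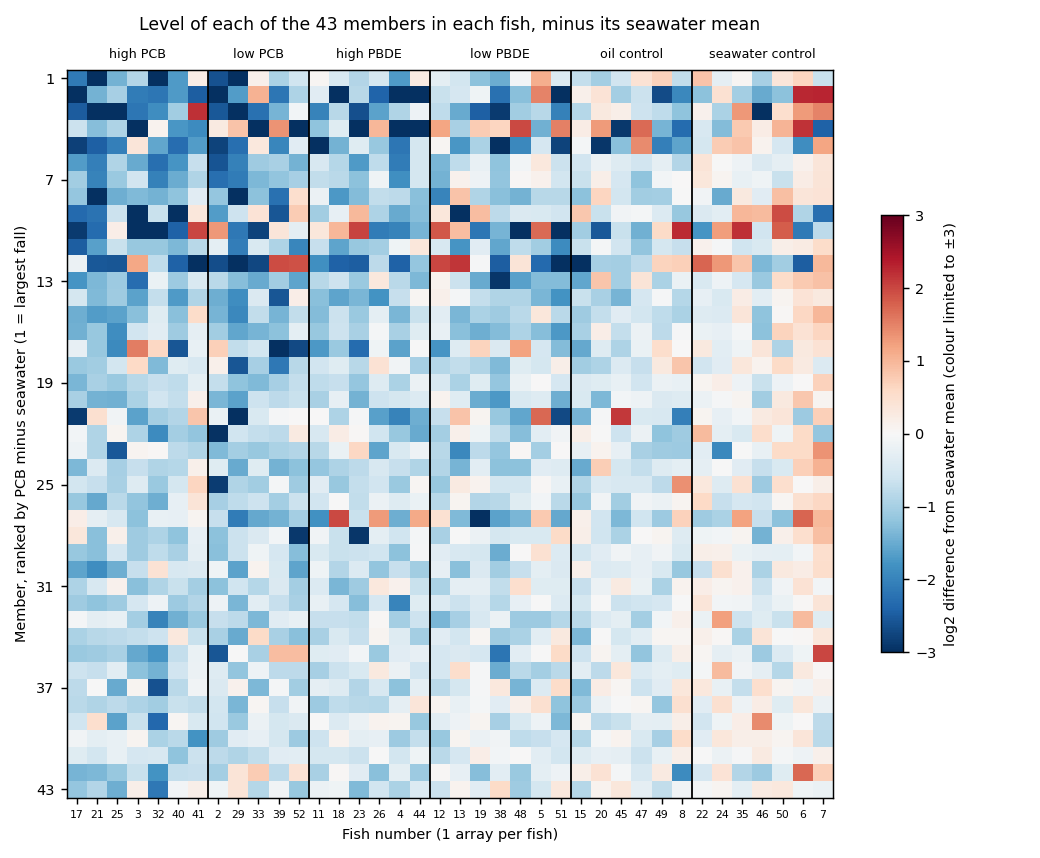
Level of each of the 43 members (rows, ordered by PCB minus seawater with the most negative at the top) in each of the 38 fish (columns, by group and fish number), as the log2 difference from the member's seawater mean; the colour scale is limited to 3 in either direction. Most cells of PCB fish are blue (below the seawater mean), the fish numbered 41 in the high PCB group less so, and single dark cells mark members that were very low in 1 fish.

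Averaged over the 43 members, each fish has 1 value, and the ranges of neighbouring groups overlapped. High PCB fish ran from -0.099 to 0.74 with a median of 0.023, and averaged 0.12 ± 0.29 (SD, n = 7). The 5 low PCB fish were at 0.05 (fish 2), -0.21 (fish 29), 0.32 (fish 33), 0.33 (fish 39) and 0.42 (fish 52), with an average of 0.18 ± 0.26 (SD, n = 5). The 2 PCB doses covered much the same range. High PBDE fish ran from 0.053 to 0.63 with a median of 0.45, and averaged 0.38 ± 0.22 (SD, n = 6). Low PBDE fish ran from 0.08 to 0.90 with a median of 0.63, and averaged 0.54 ± 0.28 (SD, n = 7). These 2 groups averaged between the PCB fish and the controls, and their fish overlapped both the PCB and the oil groups. Oil controls ran from 0.50 to 0.89 with a median of 0.76, and averaged 0.74 ± 0.14 (SD, n = 6). Seawater controls ran from 0.74 to 1.46 with a median of 1.21, and averaged 1.18 ± 0.24 (SD, n = 7).

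Of the 12 PCB fish, 11 lay below every oil and every seawater control on this average, and the exception was high PCB 41 at 0.74. Among the 13 PBDE fish, 6 lay below every oil control, and among the 6 oil controls, 3 lay below every seawater control. The members were chosen by the group means of these fish, so these counts follow in part from the choice and are a description. The mean over all 7628 probes, which were not chosen by their group means, was nearly level between groups, from 0.43 to 0.46. Scaling each array to its own 75th percentile tends to hold that mean level, so nothing is read from it. The median 75th percentile of signal intensity, a measure of array brightness, was 109 in high PCB, 124 in low PCB, 127 in high PBDE, 129 in low PBDE, 132 in oil and 109 in seawater fish. Among the 5 injected groups brightness ran in the same order as the members' averages, lowest in high PCB and highest in oil fish, whereas the seawater fish had the highest average and a brightness near that of the high PCB fish. The part of brightness in the members' levels was not tested. Over all arrays it ran from 43.6 to 194, with 6113 to 10355 probes well above background.

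**Figure D2:**
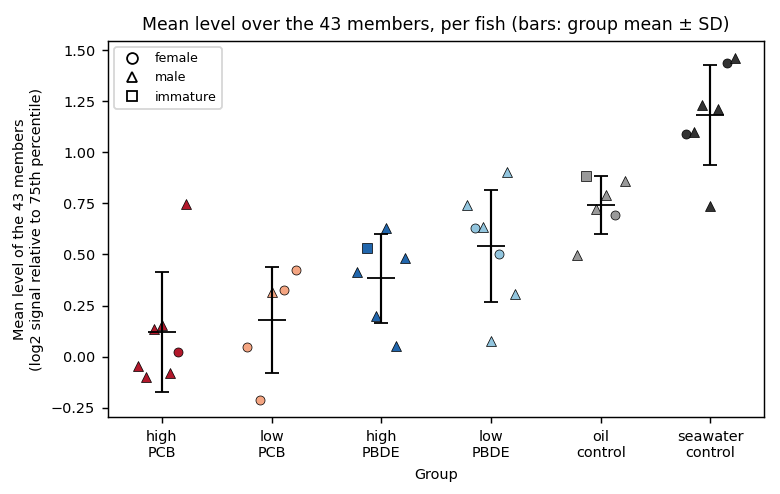
Mean level over the 43 members in each fish (log2 signal relative to the array's 75th percentile), by group; marker shapes give the sex and bars the group mean ± SD. Seawater fish sit at 0.74 to 1.46 and oil fish at 0.50 to 0.89, and all PCB fish except high PCB 41 lie below both. The members were chosen by the group means of these fish.

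Fish 41 of the high PCB group and fish 46 of the seawater controls, the seawater fish with the lowest average, were both on slide 5. On that slide 24 of 43 members were lower in the PCB fish than in the seawater fish, with a median difference of -0.28. On the other 5 slides that held both groups, 37 to 40 members were lower in PCB fish and the medians ran from -1.45 to -0.86. Each of these slides held 1 or 2 fish of a group. Oil minus seawater had a median between -0.61 and -0.23 on each of 5 slides, with 29 to 38 members lower in oil fish. The medians of the 2 smaller steps varied in sign between slides. The PBDE minus oil median ran from -0.48 to 0.19 over 6 slides and was positive on slides 4 and 6, and the PCB minus PBDE median ran from -0.90 to 0.26 over 7 slides and was positive on slide 5. With slide as a fixed block over all fish, the median steps were -0.36 for oil minus seawater, -0.25 for PBDE minus oil and -0.28 for PCB minus PBDE. High PCB 32 was alone on slide 8 and so added nothing to these steps. In that fit oil was below seawater in 42 members, PBDE below oil in 43 and PCB below PBDE in 40. These are the fish that chose the members, so the signs are a description.

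Whether the members differed between slides was tested with limma's moderated F test, with group and sex in the model. Of the 10492 probes in the fit, 9.9% passed an adjusted p (Benjamini-Hochberg, over all probes tested) of 0.05. Among the 43 members 4 passed, a share near that background. They were HT_SCCWRP_6150 (adjusted p = 0.0203), HT_SCCWRP_12228 (adjusted p = 0.0394), HT_SCCWRP_54762 (adjusted p = 0.0394) and HT_SCCWRP_11973 (adjusted p = 0.0471), by limma. Under quantile normalization HT_SCCWRP_6150 no longer passed and HT_SCCWRP_3369 did, and the other 3 passed in both. There 4 of 43 members and 922 of 10492 probes passed. Slide 8 held high PCB 32, the dimmest array, and no other fish. That fish was the lowest of all for HT_SCCWRP_12228 (-4.62), HT_SCCWRP_6150 (-4.20), HT_SCCWRP_54762 (-4.45) and HT_SCCWRP_3369 (-4.43). For these members a difference of slide 8 cannot be told apart from that single fish. Among probes well above background on all arrays, HT_SCCWRP_11973 was the member that passed (limma, adjusted p = 0.0496), with 26 members tested. Of all probes tested there, 519 of 5564 passed.

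Membership was sensitive to single fish and to the background correction. Leaving out 1 fish at a time gave 35 to 70 probes that met the choice, the highest without seawater control 46, and 22 to 42 of the 43 members were chosen again. Without oil control 15, 22 members were chosen again, without oil control 8, 23, and without oil control 20, 28. With seawater control 7 counted as an oil control, 18 of the 43 were chosen again, and 36 when it was left out. Counting it as an oil control took the median oil minus seawater step to -0.22 and the PBDE minus oil step to -0.35, so that the step between oil and seawater no longer had the largest median. Leaving it out took the oil minus seawater median to -0.32. Under normexp background correction followed by quantile normalization, 17 of the 43 were chosen again, and the median steps shrank to -0.29 for oil minus seawater, -0.11 for PBDE minus oil and -0.14 for PCB minus PBDE. Oil was then below seawater in 43 members, PBDE below oil in 41 and PCB below PBDE in 42. Differences shrank over all probes as well, with the limits of 0.25 and 0.3 unchanged. The median absolute high minus low PBDE difference over all probes tested was 0.208, and 0.072 under normexp.

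Of the 43, 6 members met the choice in each of the 38 fits that left out 1 fish. Among these 6, 3 also met it under quantile normalization, normexp correction, males alone and slide as a block, and are named here after their values were seen. HT_SCCWRP_19679 had PCB minus seawater of -1.59, with a range of -1.67 to -1.47 when single fish were left out. For HT_SCCWRP_39868 the difference was -1.44, with a range of -1.69 to -1.25. HT_SCCWRP_3169, one of the brighter members, differed by -1.03, with a range of -1.24 to -0.92. With seawater control 7 counted as an oil control, HT_SCCWRP_3169 no longer met the limit for seawater over oil. Sex was spread unevenly, and the values in males alone are given as a description, since these males are among the fish that chose the members. PCB minus seawater was negative in 42 of the 43 members, with HT_SCCWRP_19925 at 0.03. In males PBDE was below oil in 38 members and PCB below PBDE in 28, with 1 fish in the low PCB group. With all 38 fish and sex as a covariate, the median steps were -0.43 (oil minus seawater), -0.24 (PBDE minus oil) and -0.26 (PCB minus PBDE). PBDE was then below oil in 39 members and PCB below PBDE in 41, and 27 of the 43 were chosen again.

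The members with the largest differences owed part of them to single fish. HT_SCCWRP_12228 had PCB minus seawater of -1.91, a signal 3.75-fold lower in PCB fish, and 74.7% of it lay between PCB and PBDE. High PCB fish ran from -4.62 to 2.68 with a median of 0.77, and low PCB fish were at -0.16, -0.70, 2.62, 1.53 and 1.87 (fish 2, 29, 33, 39 and 52). High PBDE fish ran from 0.78 to 2.73 with a median of 1.97, low PBDE fish from 0.97 to 3.55 with a median of 2.06, oil controls from 1.45 to 3.16 with a median of 1.83, and seawater controls from 1.46 to 3.33 with a median of 2.52. The lowest value belonged to high PCB 32, which was also the dimmest array, and 7 of 12 PCB fish lay below the lowest seawater fish. Without high PCB 32, PCB minus seawater was -1.51, and in males alone it was -0.87.

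HT_SCCWRP_17473 had PCB minus seawater of -1.90, and its steps were -0.95 for oil minus seawater, -0.71 for PBDE minus oil and -0.24 for PCB minus PBDE. High PCB fish ran from -2.49 to 2.39 with a median of 1.28, and low PCB fish were at 0.041, 1.71, 4.43, 1.21 and 2.46 (fish 2, 29, 33, 39 and 52). High PBDE fish ran from -1.15 to 3.05 with a median of 0.69, low PBDE fish from -0.0051 to 4.87 with a median of 2.70, oil controls from 0.69 to 3.79 with a median of 2.56, and seawater controls from 1.87 to 5.66 with a median of 2.37. All groups overlapped, and the seawater median lay below those of the oil and low PBDE fish. Seawater controls 7 and 6, at 5.66 and 5.64, raised the seawater mean. Without seawater control 7 the difference was -1.52, and in males alone -0.52.

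Members in which every PCB fish lay below every seawater fish numbered 2 of 43, and 4 of the 7628 probes (0.0524%) had that pattern. Since the choice used the same group means, nothing is read from that count. HT_SCCWRP_19679 was at -0.84 to 0.72 in high PCB fish with a median of -0.24, and at -1.16, -0.60, 0.36, 0.44 and 0.0024 in low PCB fish (2, 29, 33, 39 and 52). High PBDE fish ran from -0.67 to 0.95 with a median of 0.61, low PBDE fish from 0.058 to 1.75 with a median of 0.78, oil controls from 0.56 to 1.25 with a median of 0.95, and seawater controls from 1.00 to 1.81 with a median of 1.40. PBDE fish overlapped both the PCB fish and the controls. HT_SCCWRP_17529 was at 3.18 to 4.15 in high PCB fish with a median of 3.86, against 4.21 to 4.66 in seawater fish with a median of 4.34, and its low PCB fish reached 4.06. Its difference was small, at -0.59, but so was its within-group SD, at 0.28, the smallest of the members.

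**Figure D3:**
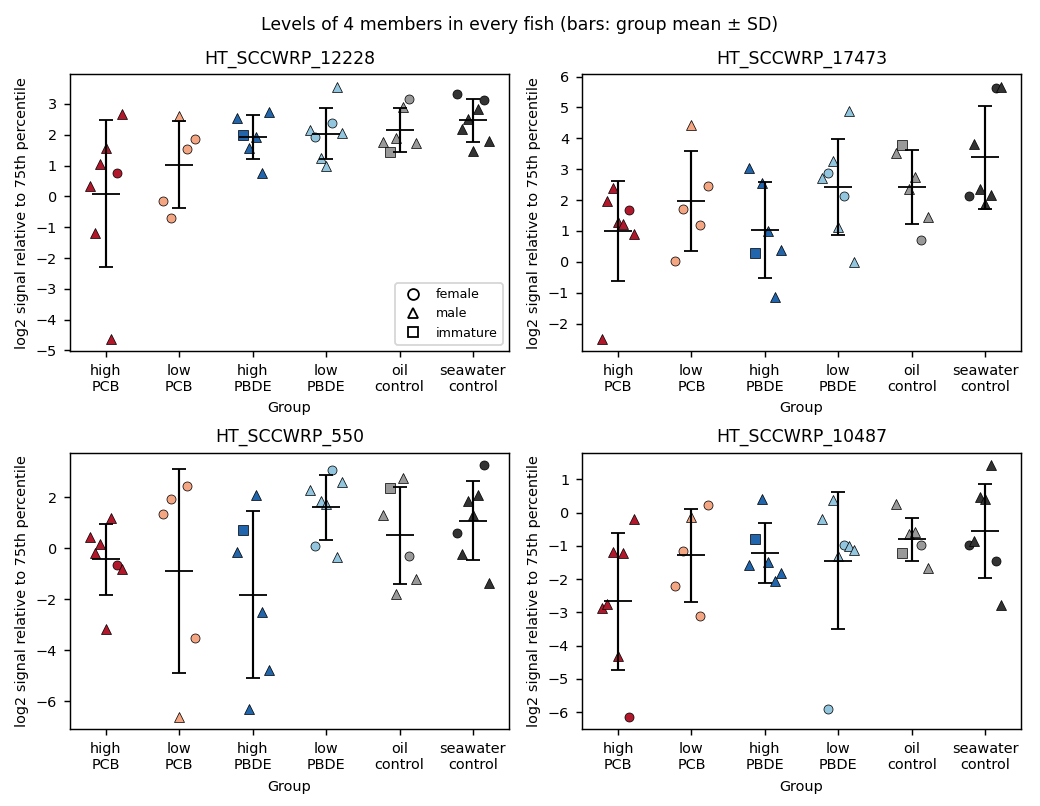
Levels of 4 members in every fish (log2 signal relative to the array's 75th percentile), by group; marker shapes give the sex and bars the group mean ± SD. HT_SCCWRP_12228 and HT_SCCWRP_17473 had the most negative PCB minus seawater differences, with high PCB fish at -4.62 and -2.49, and HT_SCCWRP_550 and HT_SCCWRP_10487 had the smallest unadjusted p in the dose comparisons, with fish as low as -6.62 and -6.14. HT_SCCWRP_12228, HT_SCCWRP_550 and HT_SCCWRP_10487 were not well above background in every fish.

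The choice used the average of the doses within each mixture and not their difference. The doses held unequal numbers of fish, so the difference is not fully independent of the choice. Both PBDE dose means lay below the oil mean in 32 of the 43 members, and both PCB dose means in 40. Both PCB dose means lay below both PBDE dose means in 20 members. With each dose taken singly, the order seawater over oil over PBDE over PCB held for 17. The choice fixed the order of the averaged means, so these counts follow in part from it and are a description. Their shares over all probes were not computed. A higher dose did not go with a lower level throughout. The high PBDE mean was below the low PBDE mean in 26 members, and the high PCB mean below the low PCB mean in 20. These means were not adjusted for sex, and the shares of all probes for these counts were not computed. The median of the high minus the low PBDE mean was -0.10 over the members and -0.042 over the 7628 probes. For the PCB means these medians were 0.059 and -0.038, so the members' median was positive and that of all probes negative. The 10-fold steps in dose differ in absolute amount between the mixtures, so equal doses of PCBs and PBDEs were not compared.

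High and low doses were compared in limma's fit across 10492 probes, with sex as a covariate. For the PBDE doses 0 of the 43 members passed the adjusted p of 0.05, as did 0% of all probes tested. At an unadjusted p under 0.05, 0 members were higher and 1 was lower at the high dose, against 2.13% and 1.87% of all probes. The median of high minus low PBDE was -0.16 over the members and -0.04 over all probes, with 15 members positive and 28 negative. The median half-width of a member's 95% interval, not adjusted for the number of probes, was 0.74. Differences well under that size were not detectable with these numbers of fish, and larger ones could also miss the adjusted p.

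HT_SCCWRP_550 had the smallest p of that comparison, and its values were widely spread. HT_SCCWRP_550 was at -6.30, -4.78, -2.50, -0.13, 0.72 and 2.07 in the high PBDE fish 23, 44, 4, 11, 18 and 26. Low PBDE fish ran from -0.36 to 3.05 with a median of 1.84. High minus low PBDE was -3.52 (SE 1.23, 95% interval -6.02 to -1.02; limma, unadjusted p = 0.00711, adjusted p = 0.999). Very low values were not confined to high PBDE fish, since low PCB 33 was at -6.62, low PCB 52 at -3.53 and high PCB 3 at -3.18. HT_SCCWRP_2868 had a difference of -0.46 (SE 0.24), and among positive differences HT_SCCWRP_72456 had 1.08 (SE 0.63) and HT_SCCWRP_3169 had 0.42 (SE 0.31), all with an adjusted p of 0.999 in limma. The difference of HT_SCCWRP_2868 was -0.22 without high PBDE 4, and that of HT_SCCWRP_72456 was 0.63 without low PBDE 19. Under normexp, HT_SCCWRP_72456 had 0.41 and HT_SCCWRP_550 had -1.65. High PBDE fish were at -2.84 to 0.96 for HT_SCCWRP_72456, against -4.66 to -0.23 in low PBDE fish, and the 2 ranges overlapped over most of their length.

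For the PCB doses, 0 of 43 members and 0% of all probes passed the adjusted p of 0.05 in limma. Low PCB fish were 4 females and 1 male, and high PCB fish 1 female and 6 males. Dose and sex nearly coincided here, so this comparison leans on a sex difference estimated over all groups. At an unadjusted p under 0.05, 0 members were higher and 2 were lower at the high dose, against 0.925% and 2.12% of all probes. The median of high minus low PCB was 0.09 over the members and -0.05 over all probes, with 24 members positive, 19 negative and a median half-width of 0.83. Without low PCB 29 the median over the members was -0.064.

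HT_SCCWRP_10487 was at -6.14 to -0.21 in high PCB fish with a median of -2.75, against -2.22, -1.17, -0.14, -3.11 and 0.23 in low PCB fish (2, 29, 33, 39 and 52). Its low values were the female high PCB 40 at -6.14 and the male high PCB 3 at -4.32. Its signal was well above background in 5 of 7 high PCB fish and in 5 of 5 low PCB fish. High minus low PCB was -2.63 (SE 0.85, 95% interval -4.36 to -0.90; limma, unadjusted p = 0.00399, adjusted p = 0.999). With no sex term it was -1.39 (limma, unadjusted p = 0.115), and under normexp -0.74. HT_SCCWRP_19925, the member ranked last but one by PCB minus seawater, had a difference of -0.93 (SE 0.45; limma, unadjusted p = 0.0453, adjusted p = 0.999). Among positive differences HT_SCCWRP_19586 had 0.72 (SE 0.43) and HT_SCCWRP_32597 had 0.66 (SE 0.43), with adjusted p of 0.999 in limma. Single fish moved these values, to 0.43 for HT_SCCWRP_19586 without low PCB 29, 0.29 for HT_SCCWRP_32597 without low PCB 2, and -0.50 for HT_SCCWRP_19925 without low PCB 33. Under normexp they were 0.09, 0.14 and -0.24. The 2 dose differences were also set against each other. The PCB dose difference minus the PBDE dose difference passed in 0 of 43 members and in 0% of probes, and at an unadjusted p under 0.05 in 2 members against 3.01% of probes.

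**Figure D4:**
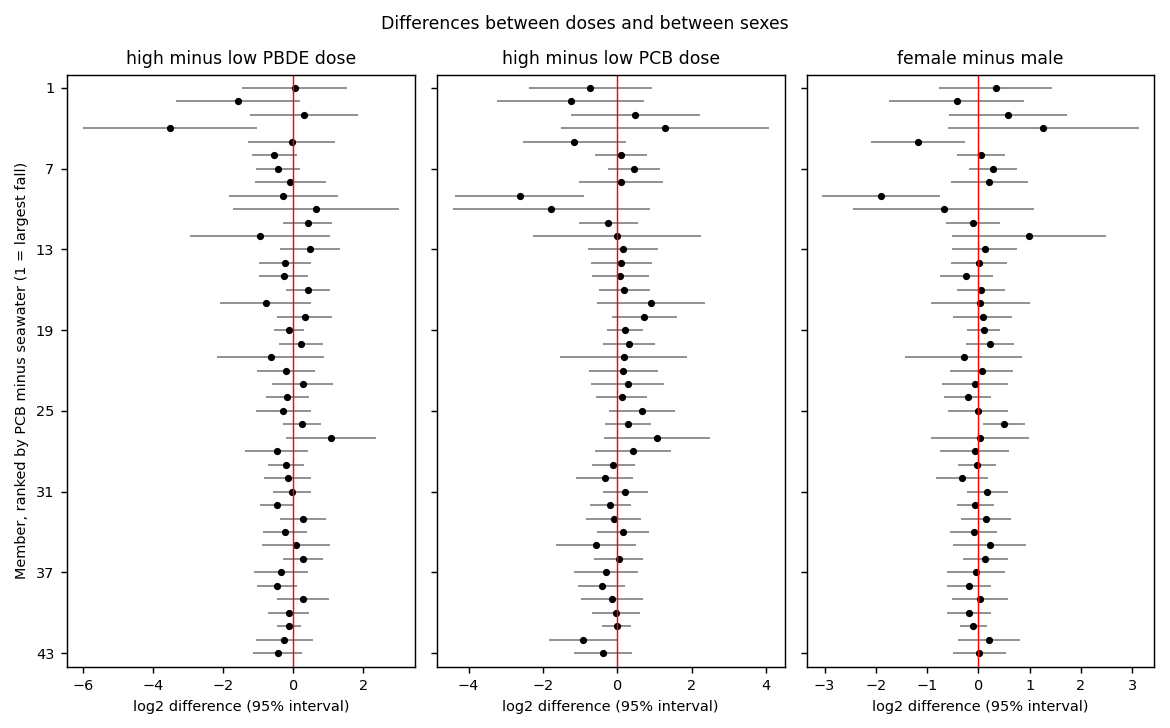
Differences between doses and between sexes for each of the 43 members, ordered from the most negative PCB minus seawater (rank 1, top) to the least (rank 43, bottom); points are limma's log2 differences and lines their 95% intervals. Most intervals include 0, and the widest belong to members such as HT_SCCWRP_550, with a high minus low PBDE difference of -3.52.

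Sex was uneven over the groups, with 4 of 5 low PCB fish female, and females and males were compared within groups in the same fit. Of the 43 members 0 passed the adjusted p of 0.05 in limma, as did 0% of all probes. At an unadjusted p under 0.05, 1 member was higher in females, against 2.38% of all probes, and 2 were lower, against 3.29%. The median of female minus male was 0.026 over the members and -0.0074 over all probes, and 24 members were positive. The half-width of the 95% interval had a median of 0.55.

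HT_SCCWRP_10487 again had the smallest p. The 10 females ran from -6.14 to 0.23 with a median of -1.31, against -4.32 to 1.42 with a median of -1.07 in the 26 males. Its female minus male difference was -1.89 (SE 0.57; limma, unadjusted p = 0.00204, adjusted p = 0.670). The lowest females were high PCB 40 at -6.14 and low PBDE 13 at -5.90, and without low PBDE 13 the difference was -1.35. HT_SCCWRP_21680 had -1.19 (SE 0.45; limma, adjusted p = 0.693), with females at 0.59 to 3.03 and males at 0.17 to 4.78. HT_SCCWRP_10220 was higher in females by 0.49 (SE 0.20; limma, adjusted p = 0.777), and HT_SCCWRP_550 by 1.27 (SE 0.91; limma, adjusted p = 0.912). Without low PCB 33 the difference of HT_SCCWRP_550 was 0.22. Under normexp the differences were -0.54 for HT_SCCWRP_10487, 0.24 for HT_SCCWRP_10220 and 0.42 for HT_SCCWRP_550.

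Members moved together only weakly among fish of one group. After group means were taken off, the correlation between 2 members had a median of 0.09 over 903 pairs (quartiles -0.06 and 0.23), against 0.0005 over 29089378 pairs of the 7628 probes (quartiles -0.15 and 0.15). These are descriptions over the same 38 arrays, which share scaling and slides. Positive correlations made up 64.8% of member pairs, against 50.1% of all pairs. Of the member pairs, 5 (0.554%) exceeded 0.7, against 0.108% of all pairs, and are named after their values were seen. HT_SCCWRP_6150 and HT_SCCWRP_54762, both of which passed the slide test at the 75th percentile scaling, had 0.82. Both were lowest of all fish in high PCB 32, and their correlation without that fish was not computed. HT_SCCWRP_8251 had 0.79 with HT_SCCWRP_3381 and 0.75 with HT_SCCWRP_4202. HT_SCCWRP_19679 had 0.77 with HT_SCCWRP_23972 and 0.71 with HT_SCCWRP_135.

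HT_SCCWRP_8251 was among the members with the highest signal, and 2 of the 4 fish of slide 5 were at an end of their group's range. High PCB fish ran from 2.74 to 8.85 with a median of 4.47, and low PCB fish were at 4.10, 3.40, 4.41, 5.25 and 6.57 (fish 2, 29, 33, 39 and 52). High PBDE fish ran from 4.00 to 6.50 with a median of 5.40, low PBDE fish from 3.78 to 5.88 with a median of 5.14, oil controls from 5.45 to 6.95 with a median of 5.96, and seawater controls from 2.91 to 8.13 with a median of 7.15. The highest of all fish was high PCB 41 at 8.85 and the lowest was high PCB 25 at 2.74, on another slide. The lowest seawater fish was 46 at 2.91. The remaining slide 5 fish, low PBDE 51 at 4.63 and high PBDE 18 at 5.82, lay inside their groups' ranges. The correlated partner HT_SCCWRP_3381 was also highest among PCB fish in high PCB 41, at 7.04, and lowest among seawater fish in seawater control 46, at 5.29. In limma's F test between slides neither member passed (adjusted p = 0.921 for HT_SCCWRP_8251 and 0.891 for HT_SCCWRP_3381).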

How the data were processed

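Liver RNA was labelled with Cy3 and hybridised to a custom 1-colour Agilent array, per the labels' protocols. Per the file headers, the authors read spot intensity with Feature Extraction 11.5.1.1. Its processed signal is a linear intensity after background subtraction. The authors' deposited value table holds the same intensity (largest difference 0.497%; column medians 4.95 to 24.3), so it was not scaled between arrays; why it was rounded is unknown. No non-control spot was saturated (0). Processed signal was taken to log2 minus the array's 75th percentile and averaged per probe, over 15207 spots and 14757 probes. limma 3.58.1 (R 4.3.3; lmFit, and eBayes with trend) was fitted to 10492 probes well above background on at least 5 arrays, after dropping probes with outlier flags, with group and sex over all 38 fish and Benjamini-Hochberg adjustment over all probes. Each fish is a separate sample, and the number of arrays limits precision.

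Named members are the 2 with the largest seawater minus PCB difference, the 2 ranked last, the probes at the limits, and the 2 with the smallest p per direction and test. All others were named after their values were seen, also where the text does not say so. The members and lists were chosen with earlier results of these data known. Slide (8) and scan day (3) came from the file headers; each slide was scanned on 1 day, so slide terms also take up scan day. Alternatives were quantile normalization, normexp (offset 50), filters on dim probes, sex, slide, the label of seawater control 7, single fish left out and the deposited table; the last was added after seeing the data. The fit was also run on simulated data with independent noise and no slide differences, a simpler setting than these arrays, and no result here rests on that run.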

Additional observations from a re-analysis of the deposited data

Results flagged for a closer look

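The mean over the members and the levels of the members named by rule were searched for a single fish far from the rest of its group, with Dixon's criterion. Of 90 such groups 7 held one, where chance gives about 1 in 20. The mean level of the members was 0.74 in high PCB 41, against -0.099 to 0.16 in the remaining 6. HT_SCCWRP_17473 was at -2.49 in high PCB 17, against 0.91 to 2.39 in the others. For HT_SCCWRP_23466, high PCB 25 was at -3.44, against -1.82 to -0.83. HT_SCCWRP_32597 was at -1.60 in high PCB 41, against -3.38 to -2.64 in the rest of that group, and at -0.89 in oil control 8, against -3.17 to -2.67 in the other oil controls. HT_SCCWRP_10487 was at -5.90 in low PBDE 13, against -1.32 to 0.39, and HT_SCCWRP_21680 was at 3.72 in high PCB 3, against 0.57 to 1.81.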

How the results depend on the processing

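The number of probes that met the choice was 52 under quantile normalization, 23 under normexp, 98 in males alone, 73 with slide as a block and 44 from the deposited table, and 35 to 70 when single fish were left out (70 without seawater control 46). The members chosen again numbered 17 under normexp, 16 in males alone, 18 with seawater control 7 counted as an oil control, and 22 to 42 when single fish were left out. The lowest of these were 22 without oil control 15, 23 without oil control 8 and 28 without oil control 20. The cause was not tested. Over single fish left out, the median steps of the members ran from -0.48 to -0.32 (oil minus seawater), -0.30 to -0.20 (PBDE minus oil) and -0.32 to -0.22 (PCB minus PBDE). Over all probes, 1 passed for the PBDE doses with no sex term, and 0 to 1 when single fish were left out. For female minus male, 1 passed under quantile normalization, and 0 to 4 when single fish were left out (4 without high PCB 41). Of the members, 0 passed in any dose or sex test under any alternative run. Between slides, 1 of 26 members and 519 of 5564 probes passed among probes well above background on all arrays, where fewer probes were tested. With no filter, 4 of 43 members and 2201 of 14740 probes passed. The 348 alternative values of the 12 dose and sex differences of named members kept their sign and did not pass, though several changed in size under normexp or without 1 fish, with a lowest adjusted p in limma of 0.321. No paired analysis was possible because fish numbers are unique to each group. Signals not well above background, on up to 7 arrays of a member, were used as measured.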
